A study of Mus musculus with 124 samples.

Results

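The 43 genes described here are mouse imprinted genes, chosen by name, with earlier results of these data known. By a class given per gene and not per tissue, 19 are listed as maternally expressed and 24 as paternally expressed. They were followed in 3 materials from mice exposed to human chorionic gonadotropin (hCG, the hormone that triggers ovulation) on the trigger day and from unexposed controls (Ctrl). Of the 35122 gene symbols in the 3 RNA tables together, 38 of the 43 members had a row in every table. The oocyte table held 39 of them among 27016 symbols, with no value analysed here for H19, Magel2, Dlk1 and Nnat. The blastocyst table held 42 of 25239, with none for Nespas, and the dorsal dentate gyrus (dDG) table held all 43 of 24409.

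The hCG females, per the labels, were in natural estrus and were injected intraperitoneally with 7.5 IU, with no PMSG priming, and their metaphase II oocytes were taken 14 h later. Ctrl females in estrus were each housed with a vasectomized male, and their oocytes were taken the next morning from plugged mice. Mating, and the time since ovulation, were therefore not matched in the oocyte comparison. Blastocysts came from uterine flushes on embryonic day 3.5, and the dDG, the granule neuron layer of the hippocampus with its surrounding tissue, came from offspring aged 8 weeks. There were 6 hCG and 6 Ctrl oocyte libraries, 28 hCG and 28 Ctrl blastocyst libraries, and 6 hCG and 6 Ctrl dDG libraries. No strain, sex or dam is given for any library, so p-values measure the spread between libraries, some of which may share a mother. How the females that gave blastocysts and offspring were mated is not given in the sources used here.

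An imprinted gene is transcribed mainly from the copy inherited from 1 parent, because DNA methylation laid down in the egg or the sperm survives the genome-wide erasure that follows fertilisation. Most such marks are set in the growing oocyte and lie over promoters of paternally expressed genes. The names maternally and paternally expressed refer to the embryo and later life, after the sperm has added its copy, and not to the oocyte. Many members act in opposite directions on growth, such as Igf2 and the receptor that degrades its product, Igf2r, and many are used again in the placenta and the postnatal brain. RNA levels do not tell the alleles apart: none of the values below measures allelic expression.

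Upstream sequences of 4 members are shown because their RNA differed between hCG and Ctrl past the threshold and because the density of CpG, the dinucleotide that carries the imprint, differs widely among them. Each is the 250 bases before an annotated start in RefSeq on GRCm38.p6, written 5′ to 3′ on the gene's strand, with every CpG in capitals. Mest has 3 annotated windows, and the last of the most CpG-rich ones is shown. Kcnq1ot1, at chr7:143296548-143296797 (- strand), is a long noncoding RNA started inside Kcnq1, and Mest, at chr6:30737803-30738052 (+ strand), encodes an α/β-hydrolase of the mesoderm. Blcap, at chr2:157566362-157566611 (- strand), encodes a small membrane protein and hosts Nnat in an intron, and Igf2r, at chr17:12769707-12769956 (- strand), encodes the receptor for IGF2 and mannose 6-phosphate.
Kcnq1ot1: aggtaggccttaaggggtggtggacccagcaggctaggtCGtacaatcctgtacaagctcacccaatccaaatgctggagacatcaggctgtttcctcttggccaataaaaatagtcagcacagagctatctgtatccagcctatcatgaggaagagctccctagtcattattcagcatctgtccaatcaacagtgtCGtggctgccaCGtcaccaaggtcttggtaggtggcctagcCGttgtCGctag
Mest: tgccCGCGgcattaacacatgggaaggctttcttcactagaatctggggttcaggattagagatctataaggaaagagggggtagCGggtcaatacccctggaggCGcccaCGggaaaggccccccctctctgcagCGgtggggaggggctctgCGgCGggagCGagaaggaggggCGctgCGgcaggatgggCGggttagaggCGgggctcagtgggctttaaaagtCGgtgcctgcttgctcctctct
Blcap: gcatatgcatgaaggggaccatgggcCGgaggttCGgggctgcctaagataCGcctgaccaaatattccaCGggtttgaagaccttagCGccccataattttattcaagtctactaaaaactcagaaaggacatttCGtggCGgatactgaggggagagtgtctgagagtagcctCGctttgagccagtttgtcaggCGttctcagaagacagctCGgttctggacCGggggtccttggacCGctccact
Igf2r: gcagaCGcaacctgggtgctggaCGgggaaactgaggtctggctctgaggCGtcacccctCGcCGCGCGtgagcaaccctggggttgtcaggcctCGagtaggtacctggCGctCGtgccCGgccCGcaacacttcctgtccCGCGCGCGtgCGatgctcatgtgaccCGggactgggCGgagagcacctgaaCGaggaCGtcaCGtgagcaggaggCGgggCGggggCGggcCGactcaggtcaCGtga

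The stretch before Igf2r held 27 CpGs, that before Mest 14, that before Blcap 12 and that before Kcnq1ot1 5. Over the 34 members with a window of 300 bases in the table (250 before and 50 after the start), the median number of CpGs was 16 in 52 windows, against 7 in all 32851 windows. The hexamer TGCCGC, the core of the motif bound by ZFP57 when methylated, was searched on both strands. It was present in 13 of 52 member windows (25%) and in 11.6% of all windows. By gene, 8 of 19 paternally and 4 of 15 maternally expressed members had it in at least 1 window, against 13.1% of all genes. Of the member windows with it, 2 lie in Mest, overlap and hold the same matches. The hexamer contains a CpG, and the part of the CpG number in these shares was not tested. The Mest stretch above holds the hexamer 2 times, and the other 3 stretches do not hold it. These matches describe the windows and say nothing of binding.

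The libraries held 4174886 to 5346134 counts in hCG and 2379861 to 6924189 in Ctrl oocytes. The dDG libraries held 15931294 to 17307306 expected counts in hCG and 14991584 to 17859654 in Ctrl, and the blastocyst libraries an estimated 4263366 to 9259347 reads in hCG and 3043231 to 10859371 in Ctrl. More genes were detected per hCG blastocyst (13549 ± 335, SD, n = 28) than per Ctrl blastocyst (12968 ± 798). Defining markers of the labelled material were present: oocyte genes summed to 12750 to 15600 CPM (counts scaled to a common library total) in hCG and 13720 to 16560 CPM in Ctrl oocytes. The 11 cumulus and granulosa cell markers in the table summed to 22.28 to 31.35 CPM in hCG and 19.44 to 35.72 CPM in Ctrl oocytes. Of these 11, 4 were at 0 in every oocyte library and 2 passed the filter on low values. In blastocysts, trophectoderm markers summed to 2296 to 8537 CPM in hCG and 1704 to 11930 CPM in Ctrl. The 12 cumulus markers summed to at most 3.25 CPM in hCG and 7.07 CPM in Ctrl blastocysts, and 3 were at 0 throughout. In dDG, granule neuron markers summed to 887 to 1167 CPM in hCG and 606 to 986 CPM in Ctrl. By edgeR, 3 of these 8 were higher and 1 was lower (adjusted p under 0.05), beside 4.67% and 3.19% of all tested genes. Their median log2 fold change was 0.305. Oligodendrocyte markers summed to 1052 to 2446 CPM in hCG and 1110 to 2725 CPM in Ctrl, with 1 of 6 higher and a median of -0.36. The part of these cell types in the dDG member results was not tested. Of the 28 hCG blastocyst libraries, 5 held both Xist and Y-linked transcripts above 50 CPM, a pattern absent from the 28 Ctrl libraries, and the member calls, list counts, domain relations and effect differences below are given with and without those 5. One dDG library, hCG 6, held 9785 CPM of choroid plexus and ependyma markers, against 33.96 to 78.5 CPM in the other 5 hCG and 32.1 to 119.5 CPM in the 6 Ctrl libraries.

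The members that passed the filter on low values differed between the materials. That filter works on counts, so it depends on library depth and on how many libraries hold reads. Dlk1 was testable in dDG at a mean of 0.60 CPM, while Meg3 was not in oocytes at a mean of 2.17 CPM. A member that was not testable in a material is therefore not shown to be unexpressed there. After the filter on low values, 20 members were testable in oocytes (11 maternally and 9 paternally expressed), 28 in blastocysts (14 and 14) and 36 in dDG (15 and 21). A set of 18 was testable in all 3 materials: Blcap, Cdkn1c, Commd1, Gab1, Gnas, Grb10, H13, Igf2r, Impact, Inpp5f, Mest, Plagl1, Ppp1r9a, Snrpn, Trappc9, Ube3a, Zdbf2 and Zrsr1. A further 10 were testable in dDG alone, among them the neuronal genes Nnat, Ndn, Nap1l5, Rasgrf1 and Peg13 and the Meg3 neighbours Rian and Mirg. Ascl2 and Slc22a18, neighbours in the Kcnq1ot1 domain, were testable in blastocysts alone, and Airn, H19, Magel2 and Nespas in no material. In oocytes Mirg, Nap1l5, Peg13 and Slc22a18 had no read in any library. In blastocysts Magel2 and Zim1 had none, and in dDG Phlda2, a growth suppressor of the placenta, had none.

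**Figure D1:**
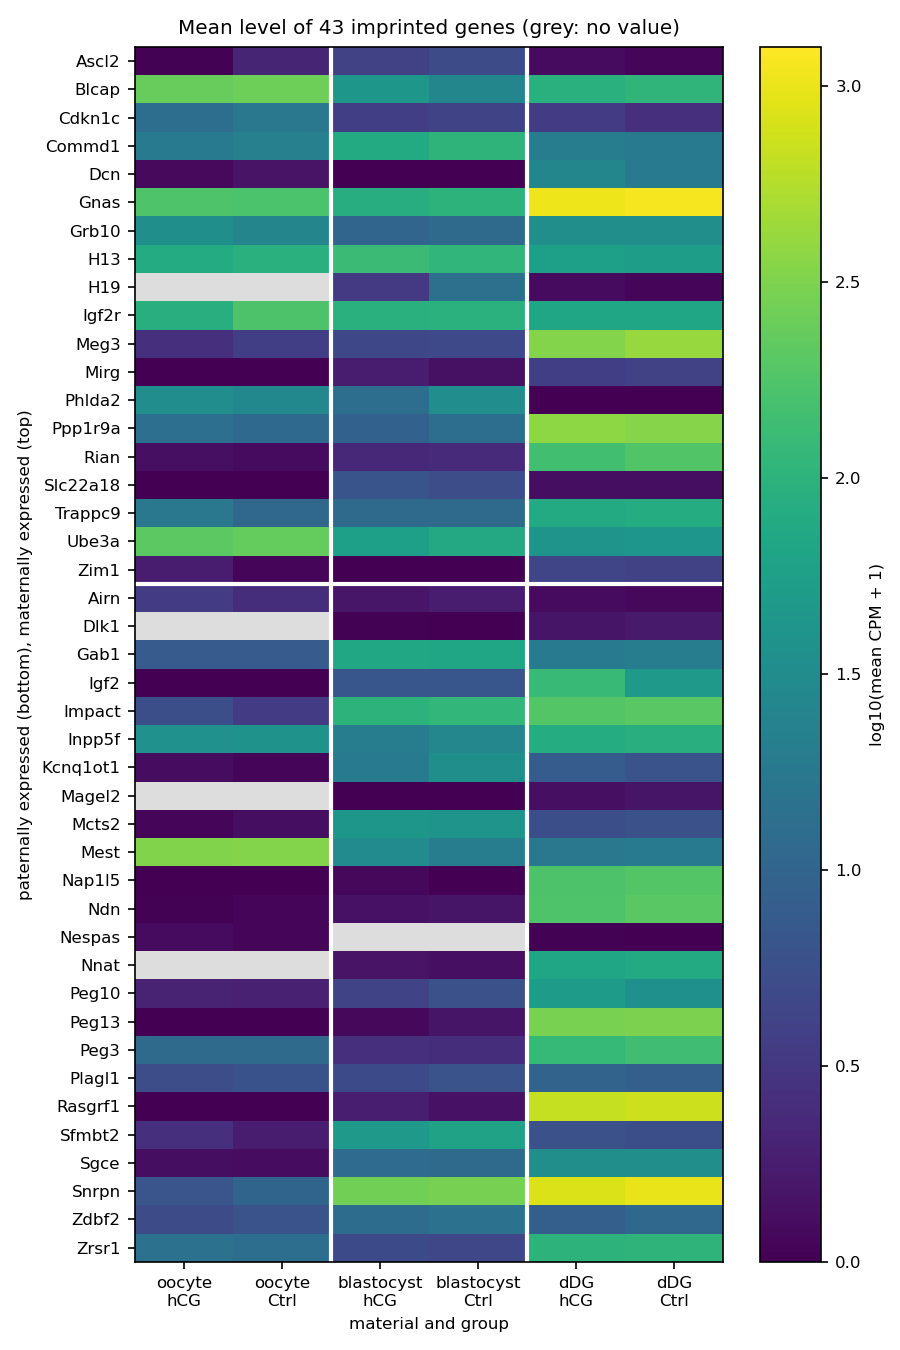
Mean level of each member (rows) in the hCG and Ctrl libraries of each material (columns), as log10 of the mean CPM plus 1, with maternally expressed genes above the white line; the 3 tables were scaled separately and CPM is not per length. Of the members, 5 of 39 averaged at least 100 CPM in oocytes, 3 of 42 in blastocysts and 12 of 43 in dDG.

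Members with a mean of at least 100 CPM differed between the materials. In oocytes these were Mest, which averaged 323 ± 64.1 CPM in hCG and 336 ± 62.5 CPM in Ctrl (SD, n = 6 each), Blcap, Ube3a, Gnas and Igf2r. Blcap averaged 236 ± 61.2 CPM in hCG and 258 ± 98.2 CPM in Ctrl oocytes, and the ubiquitin ligase gene Ube3a 209 ± 30.3 CPM in hCG and 231 ± 56.3 CPM in Ctrl. Gnas, which encodes the stimulatory G protein subunit, averaged 177 ± 42.6 CPM in hCG and 164 ± 60.9 CPM in Ctrl oocytes. In these 4 genes the libraries of the groups overlapped and no difference passed the test.

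In blastocysts the high members were Snrpn, which encodes a spliceosome protein, Impact, a regulator of the stress kinase GCN2, and H13, a signal peptide peptidase. Snrpn averaged 278 ± 52.7 CPM in hCG and 288 ± 75.4 CPM in Ctrl (SD, n = 28 each), Impact 101 ± 53.8 CPM in hCG and 111 ± 86.1 CPM in Ctrl, and H13 130 ± 32.5 CPM in hCG and 108 ± 38.0 CPM in Ctrl. None of the 3 passed the test, and H13, at a log2 fold change of 0.31 ± 0.14 (SE), had an adjusted p of 0.131 (limma).

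In dDG the 12 high members were 4 maternally expressed genes, Gnas, Meg3, Ppp1r9a and Rian, and 8 paternally expressed genes, Snrpn, Rasgrf1, Peg13, Impact, Ndn, Nap1l5, Peg3 and Zrsr1. Gnas averaged 1060 ± 68.6 CPM in hCG and 1136 ± 107 CPM in Ctrl (SD, n = 6 each), Snrpn 855 ± 102 CPM in hCG and 984 ± 67.7 CPM in Ctrl, and Rasgrf1, an exchange factor for Ras in neurons, 668 ± 42.5 CPM in hCG and 720.5 ± 22.8 CPM in Ctrl. The noncoding RNAs Meg3 and Rian averaged 337 ± 93.6 and 145 ± 30.2 CPM in hCG, against 414 ± 123 and 178 ± 23.8 CPM in Ctrl. Peg13, a noncoding RNA inside Trappc9, averaged 299 ± 28.8 CPM in hCG and 309 ± 10.7 CPM in Ctrl. Impact averaged 184 ± 24.3 CPM in hCG and 199.8 ± 11.2 CPM in Ctrl, and Ndn, a growth-restraining MAGE protein of neurons, 176 ± 8.80 CPM in hCG and 200.3 ± 33.3 CPM in Ctrl. Nap1l5 averaged 172.5 ± 12.8 CPM in hCG and 186 ± 13.3 CPM in Ctrl, and Zrsr1, a retrogene for a splicing factor, 99.97 ± 6.87 CPM in hCG and 103 ± 4.95 CPM in Ctrl. None of these passed the test in dDG.

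The oocyte comparison asked whether ovulation under hCG leaves the egg with different RNA from these genes. Igf2r fell in hCG oocytes, and was the only one of 20 tested members to pass the test. The background in this table was 3.99% of 9565 genes called (1.33% higher and 2.67% lower), and 0 of 20 members were higher and 1 was lower by edgeR's quasi-likelihood test with Benjamini-Hochberg adjustment. Without adjustment 4 of the 20 had p under 0.05, beside 18.9% of all tested genes (edgeR). The median log2 fold change was -0.05 over the tested members and 0.01 over all tested genes.

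Igf2r had 101.3, 108, 59.8, 48.9, 97.4 and 110.4 CPM in hCG oocytes 1 to 6, against 127, 157, 138.5, 210.2, 182 and 202 CPM in Ctrl oocytes 1 to 6. Every hCG library lay below every Ctrl library, a separation that 3.03% of the tested genes in the oocyte table showed in either direction. Its log2 fold change was -0.96 ± 0.20 (SE, adjusted p = 0.00865, edgeR), and the adjusted p stayed under the threshold when any 1 library was left out. The gene spans chr17:12682406-12769706 on the minus strand and overlaps Airn, its antisense noncoding RNA, which had 74 reads in hCG and 43 in Ctrl oocytes over all 6 libraries of each. Whether the authors' counting used strand is not given in the sources used here.

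Another 3 oocyte members had an unadjusted p under 0.05 and did not pass after adjustment. Trappc9, a subunit of a vesicle tethering complex, averaged 16.3 ± 4.36 CPM in hCG and 10.1 ± 3.97 CPM in Ctrl oocytes (SD, n = 6 each; log2 fold change 0.69 ± 0.26 SE, adjusted p = 0.154, edgeR). With 1 library left out its adjusted p ran from 0.0418 to 0.295 (edgeR), and it passed only without Ctrl library 4, a shallow library that holds its highest Ctrl value. Without the shallow Ctrl libraries 2 and 4 together it did not pass (0.80, adjusted p = 0.0818, edgeR). The growth inhibitor Grb10 averaged 34.3 ± 6.36 CPM in hCG and 24.5 ± 8.30 CPM in Ctrl (0.49 ± 0.21 SE, adjusted p = 0.210, edgeR). Snrpn averaged 5.51 ± 1.94 CPM in hCG and 9.08 ± 3.76 CPM in Ctrl (-0.77 ± 0.33 SE, adjusted p = 0.209, edgeR), and passed without Ctrl libraries 2 and 4 together (-1.06, adjusted p = 0.0467). For all 3 genes, all 6 hCG values lay on 1 side of the Ctrl median, and the ranges of the groups overlapped.

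The remaining 16 tested oocyte members had log2 fold changes from -0.41 (Cdkn1c, a cell cycle inhibitor) to 0.79 (Impact), none past the threshold. Among members under the filter, Ascl2, a transcription factor of the trophoblast, had 1 read over the 6 hCG libraries and 28 over the 6 Ctrl libraries, where each library had 1 to 12. Without the filter its adjusted p was 0.0612 (edgeR). Zim1, a zinc finger gene next to Peg3, had 22 reads in hCG, with 2 to 8 in each library, and 4 reads in Ctrl (adjusted p = 0.353 without the filter, edgeR). These members were singled out after their values were seen.

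**Figure D2:**
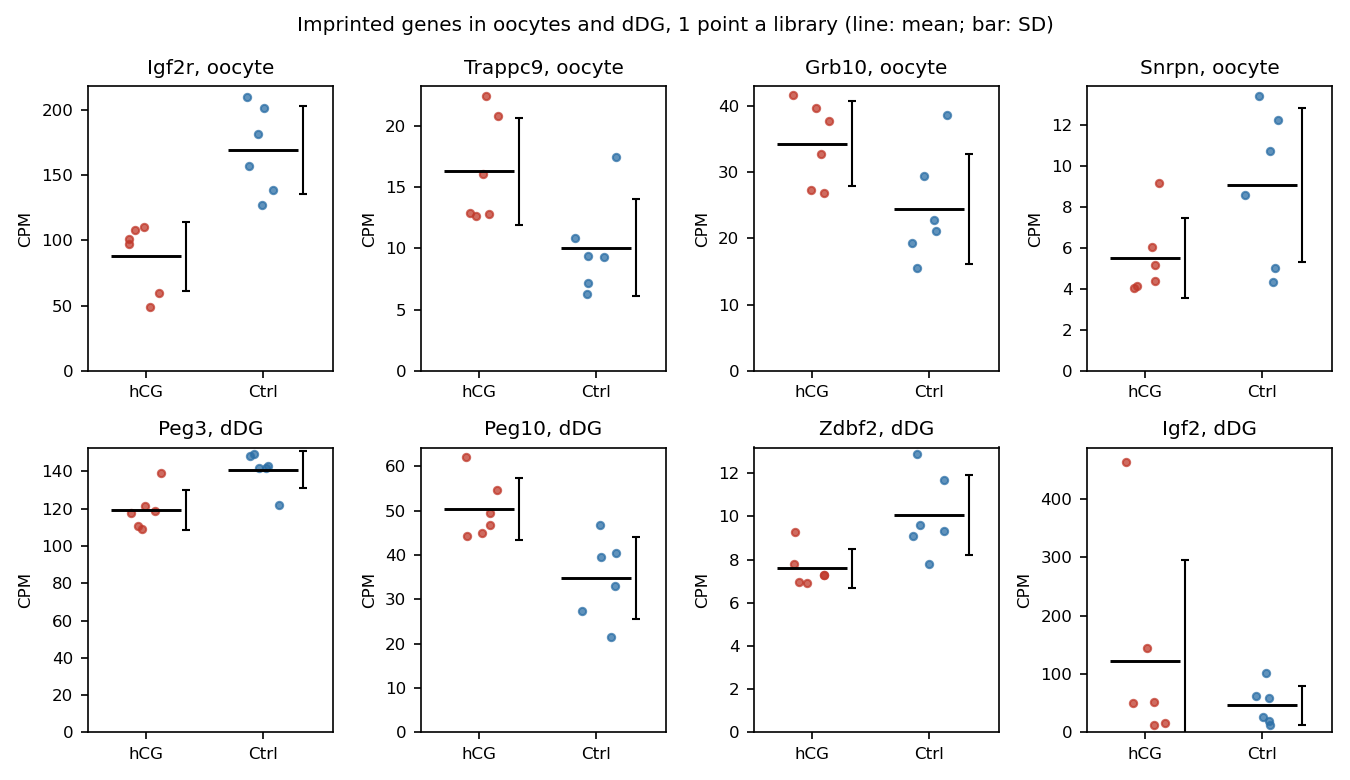
CPM of 4 members in oocytes (top) and 4 in dDG (bottom), 1 point per library, hCG left of Ctrl, with the mean as a line and the SD as a bar beside it (the lower part of the bar for Igf2 in hCG lies below 0 and is not drawn). Igf2r in oocytes shows no overlap between hCG (48.9 to 110.4 CPM) and Ctrl (127 to 210.2 CPM), while the other 7 genes overlap.

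The blastocyst comparison asked whether the embryos of hCG-exposed females carry different RNA from these genes before implantation. Of 28 tested members, 2 were higher, Blcap and Mest, and 6 were lower: Kcnq1ot1, Commd1, Ube3a, Inpp5f, Sfmbt2 and Ppp1r9a. The background was 16.3% of 10848 genes called, 8.68% higher and 7.6% lower, by limma on log2(CPM + 1). By class, 1 of 14 maternally expressed members was higher and 3 lower, and the counts were 1 and 3 of 14 for paternally expressed members. The median log2 fold change was -0.08 over the members (19 of 28 negative) and 0.02 over all tested genes. A whole blastocyst holds several cell types, so fewer cells of a type and less RNA per cell cannot be told apart. Trophectoderm markers had 1 of 8 called (Eomes, lower, -0.69 ± 0.17 SE), with a list median of -0.02. Inner cell mass and epiblast markers had 1 of 6 called (Nanog, higher, 0.58 ± 0.19 SE), with a list median of -0.07. The markers not called had either sign, from -0.64 (Elf5) to 0.39 (Gata3) for trophectoderm. For inner cell mass and epiblast they ran from -0.57 (Fgf4) to 0.57 (Pou5f1). Primitive endoderm markers had 0 of 4 called by limma and 0 with an unadjusted p under 0.05 (median -0.50), with sums of 69.55 to 184.6 CPM in hCG and 53.56 to 327.3 CPM in Ctrl. Of 12 uterine, stromal and blood cell markers, 3 were tested and 1 was higher (H2-Ab1, 0.98 ± 0.26 SE, adjusted p = 0.00771, limma). They summed to 26.89 to 233.9 CPM in hCG and 15.71 to 141.6 CPM in Ctrl, and 4 were at 0 in every library. The part of these markers in the member results was not tested.

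Kcnq1ot1, the paternally expressed RNA that silences its neighbours in cis, had 7.33, 17.9 and 33.2 CPM in hCG blastocysts (lowest, median and highest of 28) against 5.52, 29.4 and 89.6 CPM in Ctrl blastocysts. Of the hCG libraries 26 of 28 lay below the Ctrl median. It fell to a mean of 18.2 ± 6.39 CPM in hCG, against 34.4 ± 18.7 CPM in Ctrl (log2 fold change -0.79 ± 0.17 SE, adjusted p = 0.00159, limma). Among its neighbours in the domain, with all libraries, none of those tested passed: Cdkn1c had a log2 fold change of -0.06 ± 0.24, Phlda2 -0.24 ± 0.44, Ascl2 -0.08 ± 0.34 and the transporter gene Slc22a18 0.50 ± 0.31. Tssc4 and Nap1l4 had 0.33 ± 0.23 and 0.20 ± 0.13, and Osbpl5 and Tnfrsf23 -0.27 ± 0.23 and 0.05 ± 0.24. Cd81, a membrane tetraspanin, had 0.70 ± 0.28 (adjusted p = 0.0759, limma), and passed without the 5 libraries with both Xist and Y-linked transcripts (0.92 ± 0.28 SE, adjusted p = 0.0307, limma). With the number of detected genes as a covariate its adjusted p was 0.25 (limma).

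Blcap had 11.8, 42.7 and 74.0 CPM in hCG blastocysts (lowest, median and highest) against 5.48, 21.8 and 65.0 CPM in Ctrl. It rose to a mean of 42.6 ± 13.9 CPM in hCG, against 25.5 ± 13.6 CPM in Ctrl (0.78 ± 0.16 SE, adjusted p = 0.00111, limma), with 26 of 28 hCG libraries above the Ctrl median. Mest had 9.66, 27.9 and 57.8 CPM in hCG against 1.77, 15.6 and 51.8 CPM in Ctrl. Its mean was 30.3 ± 14.6 CPM in hCG and 19.3 ± 12.9 CPM in Ctrl (0.73 ± 0.22 SE, adjusted p = 0.0157, limma), with 24 of 28 hCG libraries above the Ctrl median. The groups overlapped in both genes.

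Among the lower members, Commd1, a copper and trafficking protein whose intron holds Zrsr1, averaged 76.8 ± 16.5 CPM in hCG and 102 ± 27.6 CPM in Ctrl (-0.43 ± 0.10 SE, adjusted p = 0.00325, limma). Zrsr1, which lies within Commd1 on the opposite strand, averaged 3.96 ± 3.85 CPM in hCG and 3.62 ± 2.76 CPM in Ctrl and did not pass. Ube3a averaged 55.7 ± 11.4 CPM in hCG and 73.8 ± 25.7 CPM in Ctrl (-0.38 ± 0.11 SE, adjusted p = 0.0117, limma), and 27 of 28 hCG libraries lay below its Ctrl median. Its paternally expressed neighbour Snrpn had -0.07 ± 0.10 SE.

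Inpp5f, a phosphoinositide phosphatase, averaged 19.2 ± 5.80 CPM in hCG and 26.6 ± 9.91 CPM in Ctrl (-0.45 ± 0.14 SE, adjusted p = 0.0196, limma), with 25 of 28 hCG libraries below the Ctrl median. The trophoblast Polycomb-group gene Sfmbt2 averaged 46.5 ± 16.05 CPM in hCG and 60.3 ± 22.7 CPM in Ctrl (-0.40 ± 0.14 SE, adjusted p = 0.0348, limma), with 19 of 28 below. Ppp1r9a, which encodes the actin-binding protein neurabin, averaged 8.12 ± 4.80 CPM in hCG and 12.1 ± 6.91 CPM in Ctrl (-0.58 ± 0.21 SE, adjusted p = 0.0465, limma), with 23 of 28 below.

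The calls differed in how they held up. Without the 5 hCG libraries that held both Xist and Y-linked transcripts, 1 member was higher and 3 were lower: Blcap, Kcnq1ot1, Commd1 and Sfmbt2 passed, while the adjusted p (limma) was 0.0586 for Mest, 0.0514 for Inpp5f, 0.0615 for Ube3a and 0.113 for Ppp1r9a. With the number of detected genes as a covariate, Blcap, Kcnq1ot1, Inpp5f and Sfmbt2 passed, and the adjusted p (limma) was 0.0611 for Commd1, 0.0752 for Mest, 0.0926 for Ube3a and 0.0514 for Ppp1r9a. Under both fits the calls over all genes fell as well, to the totals given in the last section, so the loss of calls is not particular to these members.

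**Figure D3:**
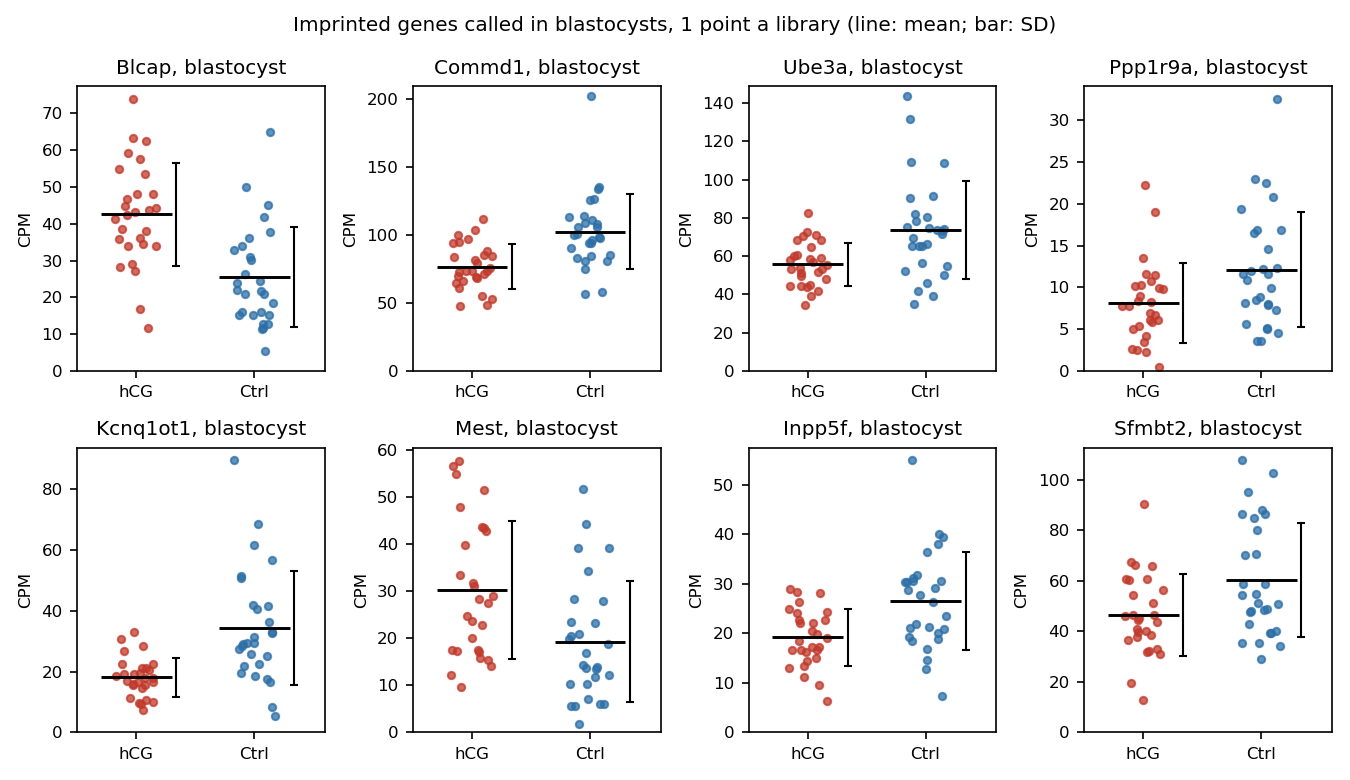
CPM of the 8 members called in blastocysts, maternally expressed genes on top and paternally expressed genes below, 1 point per library (n = 28 hCG, left, and 28 Ctrl, right), with the mean as a line and the SD as a bar. Kcnq1ot1 averages 18.2 CPM in hCG and 34.4 CPM in Ctrl, Blcap 42.6 CPM in hCG and 25.5 CPM in Ctrl, and the groups overlap in every panel.

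Some members varied widely between blastocysts of the same group. H19, a maternally expressed growth-restraining RNA, was under the filter: it had reads in 15 of 28 hCG and 16 of 28 Ctrl libraries, with a median of 0.27 and a highest value of 27.2 CPM in hCG, against a median of 1.01 and a highest value of 103 CPM in Ctrl (adjusted p = 0.281 in the fit without the filter, limma). Phlda2 had a median of 7.97 and a highest value of 52.3 CPM in hCG, against 7.001 and 349 CPM in Ctrl. Neighbours in a domain were compared across libraries within each group, as log2(CPM + 1), for the 9 listed pairs with both genes tested, which gave 18 relations. In 9 of them both Pearson's r and Spearman's rho had an adjusted p under 0.05 by permutation with 100000 resamples. Relations were not computed for other pairs of genes. This count therefore has no background beside it and does not show whether neighbours vary together more than other genes do.

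Ascl2 and Phlda2 varied together, with r = 0.752 and rho = 0.767 in hCG (permutation p = 1e-05, the smallest the resamples can give, and 2e-05; adjusted 0.00018 and 0.00036, n = 28) and r = 0.711 and rho = 0.461 in Ctrl (p = 5e-05 and 0.0139; adjusted 0.00045 and 0.0313). Without the 2 libraries farthest from the median of Ascl2, r was 0.693 in hCG and 0.526 in Ctrl. Phlda2 and Slc22a18 had r = 0.565 and rho = 0.627 in hCG (permutation p = 0.00169 and 0.0005; adjusted 0.00608 and 0.0045) and r = 0.569 and rho = 0.443 in Ctrl (p = 0.00138 and 0.0197; adjusted 0.00608 and 0.0395), with r = 0.721 in hCG and 0.358 in Ctrl without the farthest 2. Cdkn1c and Phlda2 had r = 0.495 and rho = 0.536 in hCG (permutation p = 0.00745 and 0.00367; adjusted 0.0149 and 0.0179) and r = 0.538 and rho = 0.464 in Ctrl (p = 0.0028 and 0.0133; adjusted 0.00738 and 0.0313), with r = 0.463 and 0.545 without the farthest 2. The points share library depth and the makeup of the embryo, whose part in these relations was not tested.

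Peg10, a retrotransposon-derived placental gene, and its divergent neighbour Sgce had r = 0.538 and rho = 0.505 in hCG (permutation p = 0.00338 and 0.00685; adjusted 0.0076 and 0.0205) and r = 0.546 and rho = 0.522 in Ctrl (p = 0.00287 and 0.00497; adjusted 0.00738 and 0.0179), with r = 0.628 and 0.457 without the farthest 2. Zrsr1 and the gene that holds it, Commd1, had r = -0.571 and rho = -0.527 in hCG (permutation p = 0.00151 and 0.00446; adjusted 0.00608 and 0.0179; r = -0.535 without the farthest 2). In Ctrl they had r = -0.061 and rho = 0.002 (permutation p = 0.761 and 0.994; adjusted 0.781 and 0.994), and the difference between the groups was not tested. The 2 genes overlap and whether the counting used strand is not given, so their reads may not be told apart. Without the 5 hCG libraries with both Xist and Y-linked transcripts, 8 of the 9 relations passed, and the exception was Zrsr1 with Commd1 in hCG (r = -0.457 and rho = -0.452, n = 23; adjusted permutation p = 0.0589 and 0.0625). Cdkn1c and Kcnq1ot1 had r = 0.083 in hCG and -0.116 in Ctrl (adjusted permutation p = 0.781 and 0.720).

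**Figure D4:**
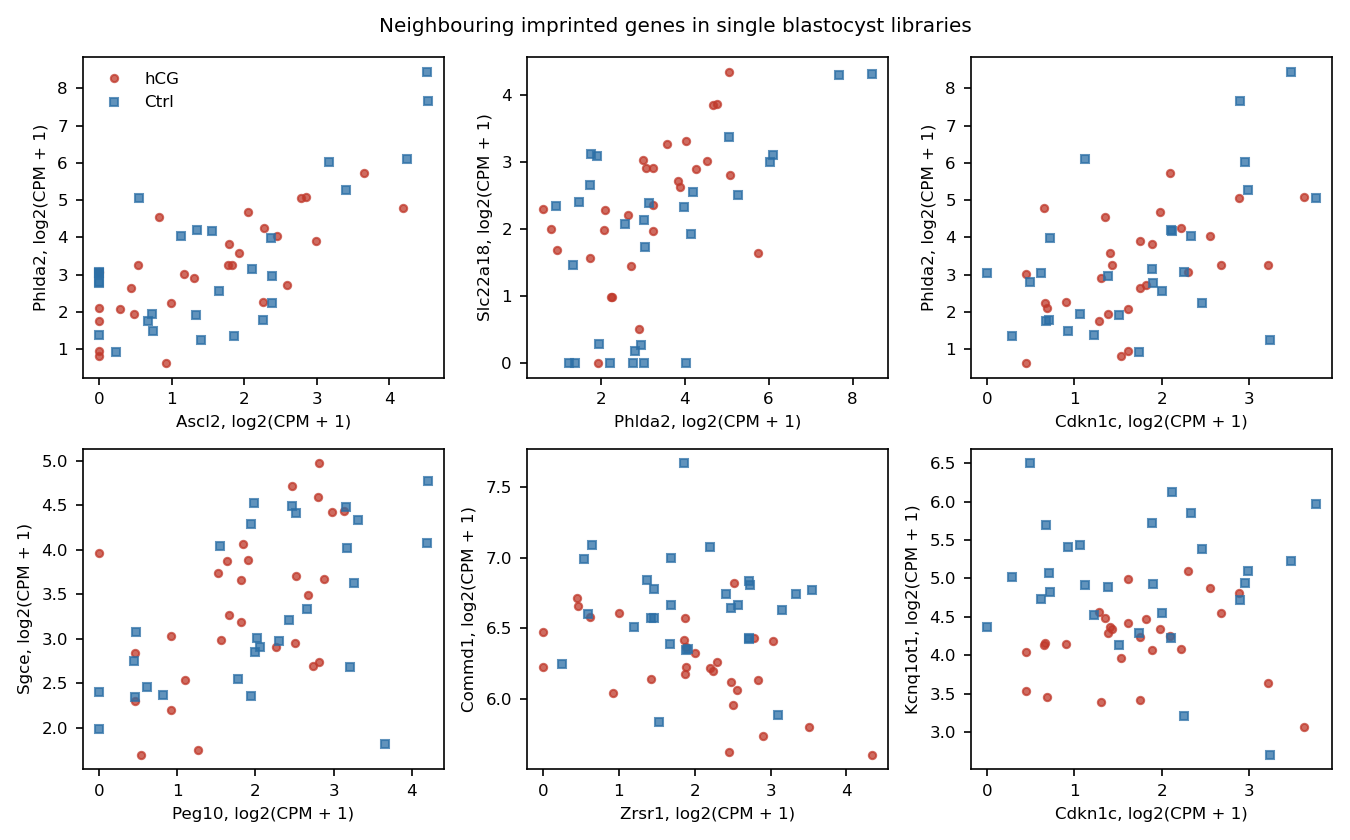
Levels of 6 pairs of neighbouring members in single blastocyst libraries, both axes in log2(CPM + 1), with hCG libraries as circles and Ctrl libraries as squares (n = 28 each). Ascl2 and Phlda2 line up in both groups (r = 0.752 in hCG and 0.711 in Ctrl), Zrsr1 and Commd1 slope downward in hCG (r = -0.571), and Cdkn1c and Kcnq1ot1 show no trend (r = 0.083 in hCG and -0.116 in Ctrl).

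The dDG comparison asked whether the adult offspring of hCG-exposed females differ in these genes in a brain region where many imprinted genes are active. By edgeR's quasi-likelihood test, 0 of 36 tested members were higher and 0 lower, in a table with a background of 7.86% of 13874 genes called (4.67% higher and 3.19% lower). Without adjustment 7 of 36 had p under 0.05, beside 24% of all tested genes. DESeq2 called 3 of the 35 members it gave an adjusted p, beside 11.7% of 13552 genes: Peg10 higher, and Peg3 and Zdbf2 lower. The median log2 fold change was -0.06 over the members, 0.03 over the 15 maternally and -0.09 over the 21 paternally expressed ones, and 0.01 over all tested genes.

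Peg10 had 62.2, 49.6, 46.7, 45.0, 54.7 and 44.2 CPM in hCG dDG 1 to 6, against 21.6, 27.4, 32.9, 39.5, 46.7 and 40.5 CPM in Ctrl dDG 1 to 6. All 6 hCG values lay above the Ctrl median and the ranges overlapped (log2 fold change 0.55 ± 0.17 SE, adjusted p = 0.0678 by edgeR and 0.0109 by DESeq2). Its neighbour Sgce had 0.02 ± 0.08 SE. Peg3, a zinc finger gene of maternal behaviour and growth, had 139, 109, 121.5, 118, 119 and 110.6 CPM in hCG, against 122, 149, 142, 142, 143 and 148 CPM in Ctrl. All 6 hCG values lay below the Ctrl median, but the groups overlapped, as they did in each of the 36 tested members; 4.5% of all tested genes in the dDG table had groups that did not overlap. The log2 fold change of Peg3 was -0.22 ± 0.07 SE (adjusted p = 0.0536 by edgeR and 0.0218 by DESeq2). With 1 library left out its adjusted p ran from 0.00937 (without hCG 1) to 0.118 (without Ctrl 6), and was under the threshold without hCG 1 or Ctrl 1 only (edgeR). Those are the highest hCG and the lowest Ctrl value, the 2 that lie against the difference.

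Zdbf2, a gene that promotes growth through hypothalamic feeding circuits in mice, averaged 7.59 ± 0.88 CPM in hCG and 10.1 ± 1.86 CPM in Ctrl (SD, n = 6 each), with all 6 hCG values below the Ctrl median (-0.39 ± 0.13 SE, adjusted p = 0.0776 by edgeR and 0.0479 by DESeq2). Blcap averaged 90.8 ± 8.49 CPM in hCG and 105 ± 9.57 CPM in Ctrl (-0.20 ± 0.07 SE, adjusted p = 0.099, edgeR). Snrpn had -0.19 ± 0.08 SE (adjusted p = 0.153, edgeR), and both Blcap and Snrpn had all 6 hCG values below the Ctrl median. Ppp1r9a had 0.16 ± 0.06 SE and Kcnq1ot1 0.45 ± 0.18 SE, with adjusted p of 0.102 and 0.140 (edgeR). Peg10, Zdbf2 and Ppp1r9a also passed in 1 or 2 of the 12 fits that left out 1 library, where their adjusted p ran from 0.0301 to 0.13, 0.0352 to 0.164 and 0.0374 to 0.201 (edgeR).

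Of the tested dDG members Igf2 had the largest standard error. It is a gene that meninges and choroid plexus express in the adult brain. Igf2 had 16.6, 52.1, 49.7, 145, 12.5 and 463 CPM in hCG, against 13.2, 62.4, 101.4, 58.3, 20.4 and 26.2 CPM in Ctrl (log2 fold change 1.41 ± 0.91 SE, adjusted p = 0.374, edgeR). The 2 highest, hCG 6 and hCG 4, were also the libraries with the highest meninges marker sums, 183 and 216 CPM, against 35.6 to 69.6 CPM in the other 4 hCG and 31.9 to 161 CPM in the 6 Ctrl libraries. Without hCG 6 the log2 fold change of Igf2 was 0.24 ± 0.72, and with the summed choroid plexus and meninges markers as a covariate it was 0.00 ± 0.44. Cdkn1c had 0.71 ± 0.42 in the full table, 0.36 ± 0.37 without hCG 6 and 0.19 ± 0.30 with the covariate. For Dcn these were 0.55 ± 0.79, 0.32 ± 0.84 and 0.02 ± 0.68, and for Plagl1 0.16 ± 0.24, -0.06 ± 0.20 and -0.00 ± 0.24. Mest had -0.05 ± 0.19 with all libraries and -0.30 ± 0.08 without hCG 6, where it passed (adjusted p = 0.0442, edgeR), and -0.28 ± 0.11 with the covariate (adjusted p = 0.132, edgeR). Because hCG 6 holds by far the highest marker sum, the covariate fit and the fit without hCG 6 are not independent of each other. The part of choroid plexus or meninges tissue in these values was not tested.

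Transcript shares, which can shift when a gene has imprinted and non-imprinted promoters, were compared in dDG for the 14 members with more than 1 measurable transcript. None of 30 transcripts had an unadjusted p under 0.05 by the exact permutation test over every regrouping of 6 against 6 libraries, whose smallest possible p was 0.00216. The largest part of Gnas counts, NM_201616, took 74.0 ± 1.66% in hCG and 74.7 ± 1.17% in Ctrl (SD, n = 6 each; exact permutation p = 0.411). In Grb10, NM_001177629 took 51.2 ± 9.92% in hCG and 43.03 ± 9.98% in Ctrl (exact permutation p = 0.182). The 2 Peg10 transcripts held equal values and could not be told apart.

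No member was called in 2 materials: 9 were called in 1. Over all tested genes 3.99% were called in oocytes, 16.3% in blastocysts and 7.86% in dDG. The share of all genes called in 2 materials was not computed. With 18 members tested in all 3, the count does not show that members differ from other genes in this. Whether the hCG effect itself differed between materials was tested with a Wald test on limma fits of log2(CPM + 1), where 15.1% of 7177 genes passed for blastocyst minus oocyte, 13% of 9338 for dDG minus blastocyst and 9.27% of 7669 for dDG minus oocyte. For Igf2r the log2 effect was -0.07 in blastocysts and -0.99 in oocytes, a difference of 0.92 ± 0.24 (SE, adjusted p = 0.00292), and 0.02 in dDG, a difference of 1.02 ± 0.22 from oocytes (adjusted p = 0.000236). For Kcnq1ot1 the effect was 0.39 in dDG and -0.79 in blastocysts, a difference of 1.186 ± 0.23 (adjusted p = 5.1e-05), and for Blcap -0.19 in dDG and 0.78 in blastocysts, a difference of -0.97 ± 0.18 (adjusted p = 1.11e-05). Commd1, Mest, Ppp1r9a and Ube3a differed between dDG and blastocysts as well, Blcap and Mest between blastocysts and oocytes, and Trappc9 between dDG and oocytes. In all, 3 of 19 members passed for blastocyst minus oocyte (15.8%), 6 of 25 for dDG minus blastocyst (24%) and 2 of 19 for dDG minus oocyte (10.5%); the first and the last share lie near the background. Pairs that share a material share its libraries. Without the 5 libraries with both Xist and Y-linked transcripts, 2 of 19 members passed for blastocyst minus oocyte, beside 14.3% of 7207 genes. For dDG minus blastocyst 4 of 25 passed, beside 10.1% of 9384 genes. In these fits Mest lost both of its calls (adjusted p = 0.076 and 0.0653) and Ube3a its own (0.155, Wald test on limma fits).

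**Figure D5:**
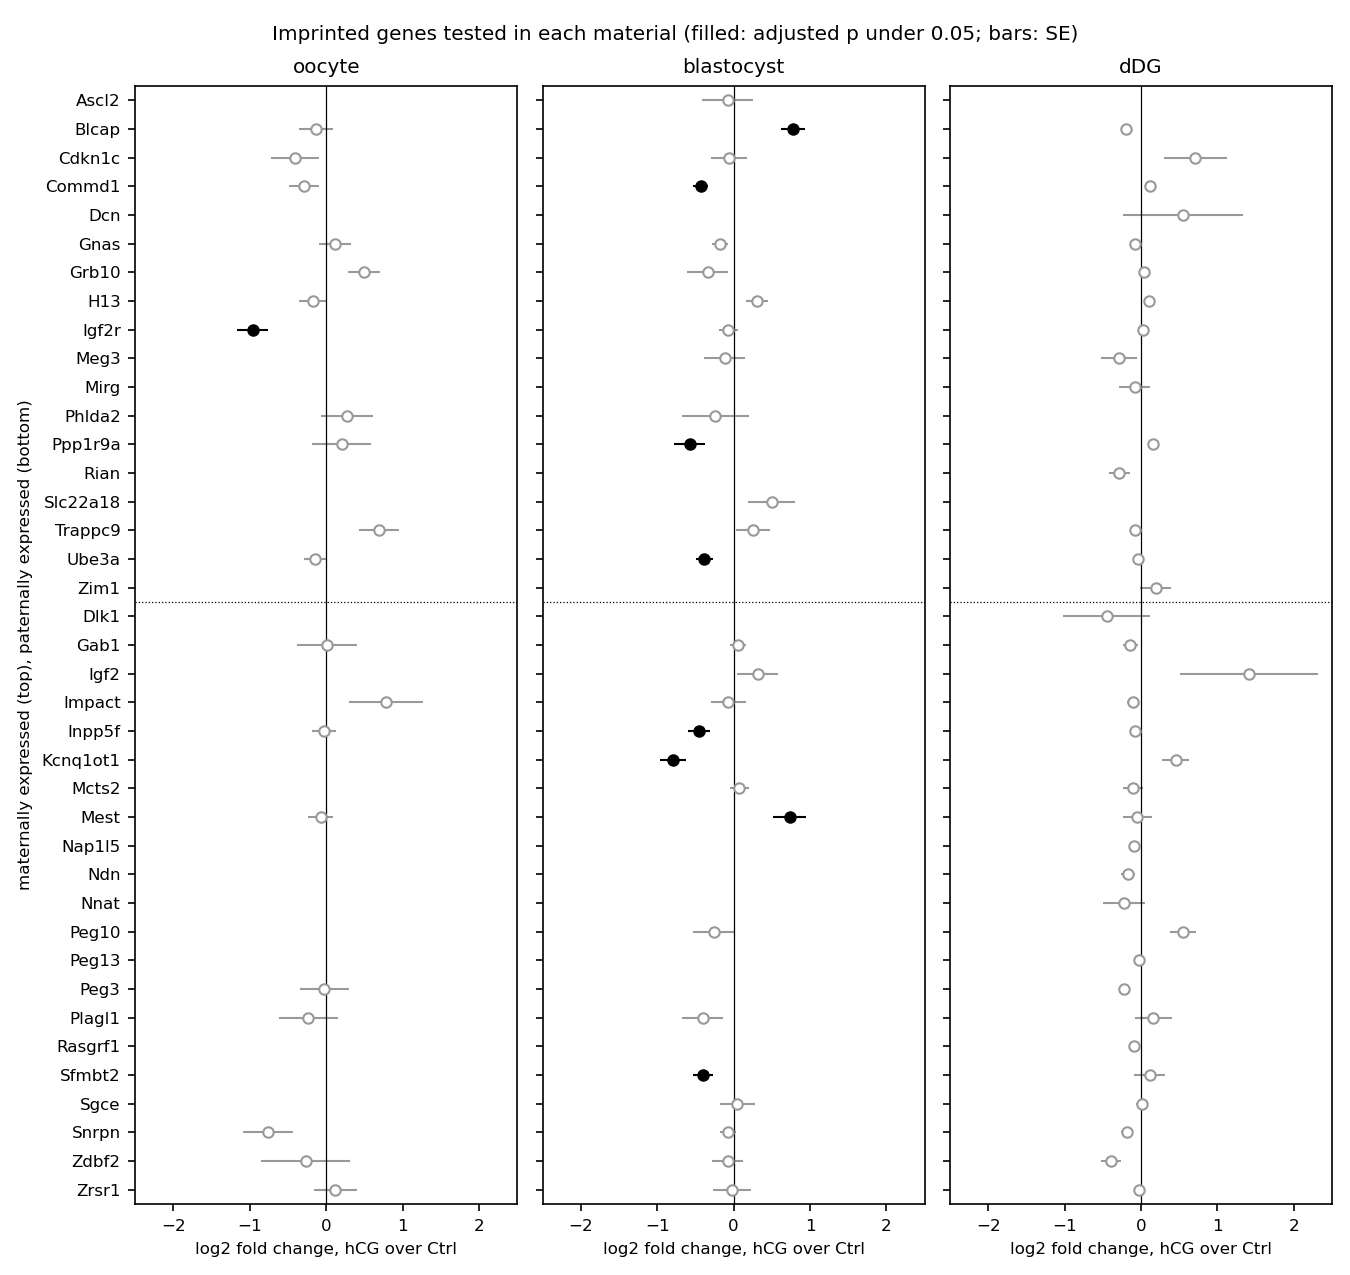
Log2 fold change of hCG over Ctrl for each member tested in oocytes, blastocysts and dDG (panels), with its standard error as a bar and filled points for an adjusted p under 0.05; maternally expressed genes stand above the dotted line. Filled points are Igf2r in oocytes (-0.96) and 8 members in blastocysts, from -0.79 (Kcnq1ot1) to 0.78 (Blcap), and dDG has none.

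Further imprinted genes and the factors that protect imprints were read from 2 other lists. Of 45 other imprinted genes, 0 of 17 tested were called in oocytes, where 1 had an unadjusted p under 0.05 and the test was edgeR's. In blastocysts 0 of 21 were higher and 1 was lower (Jade1, a histone acetylation adaptor, -0.42 ± 0.13 SE), beside 8.68% and 7.6% of all tested genes. Without the 5 libraries with both Xist and Y-linked transcripts Jade1 was lower and Cd81 higher, and with the number of detected genes as a covariate 0 of 21 were called, Jade1 having an adjusted p of 0.0637 (limma). In dDG 1 of 27 was higher (Osbpl5, a lipid transfer gene of the Kcnq1ot1 domain, 0.73 ± 0.12 SE, adjusted p = 0.0017, edgeR) and 2 were lower (the coatomer gene Copg2, which lies beside Mest, -0.24 ± 0.05, and Adam23, an adhesion protein, -0.42 ± 0.11), beside 4.67% higher and 3.19% lower over all tested genes. Without the choroid-rich hCG library 6, Osbpl5 and Copg2 passed and Adam23 did not.

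Of 30 imprint-protecting factors, 10 of 26 tested were lower in hCG blastocysts and 0 higher, beside 7.6% lower and 8.68% higher over all tested genes, with a list median of -0.28 against 0.02. Without the 5 libraries with both Xist and Y-linked transcripts 7 were lower and 0 higher, an alternative added after the data were seen, and with the number of detected genes as a covariate 8 were lower and 1 higher. For both lists these counts stand beside fewer calls over all genes too, with the totals in the last section. The 4 with the smallest p were the de novo methyltransferase Dnmt3b (-0.61 ± 0.11 SE), the insulator protein Ctcf (-0.52 ± 0.12), Uhrf1, which guides maintenance methylation (-0.52 ± 0.13), and the Polycomb subunit Suz12 (-0.46 ± 0.12). All 4 passed without the 5 libraries, and Suz12 did not pass with the covariate (adjusted p = 0.118, limma). In hCG oocytes 1 of 27 was higher (Suz12, 0.87 ± 0.23) and 2 were lower, the maintenance methyltransferase Dnmt1 (-0.78 ± 0.19) and the histone methyltransferase Ehmt1 (-0.77 ± 0.16), beside 1.33% higher and 2.67% lower over all tested genes. In hCG dDG 2 of 23 were higher, the corepressor Trim28 (0.18 ± 0.05) and heterochromatin protein Cbx5 (0.21 ± 0.06), and 2 were lower, the demethylase Kdm1b (-0.30 ± 0.09) and Arid4a (-0.20 ± 0.06), beside 4.67% and 3.19% over all tested genes. Without hCG library 6, 0 of the 23 were higher and 1 was lower (Arid4a). The share of all genes called without that library is not given here, for this list or for the other imprinted genes.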

How the data were processed

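RNA tables of 80 of the 124 samples were used; the 44 bisulfite samples were not analysed here. The deposited oocyte table holds counts per gene symbol. The deposited dDG table holds expected counts per transcript, which were summed by gene and rounded. The deposited blastocyst table holds a scaled signal of unstated basis: in each library 88.1% to 93.37% of values were multiples, within 0.005, of 1 step (39.29 to 244.5), so values were divided by the column total, and an estimated read number (value over step) served for depth, the filter and normalization factors. Per the submitters' processing notes, the tools included HTSeq 0.12.4, STAR 2.7.6a, Bowtie2, SAMtools 1.19.1, TopHat, Trimmomatic 0.32 and Trim Galore 0.6.4, with mm10 and GRCm38; which made which table is not given in the sources used here.

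The oocyte and dDG tables went through edgeR 4.0.16 (R 4.3.3; robust quasi-likelihood F test, TMM, filter of 10 counts and 15 in total), and blastocysts through limma 3.58.1 on log2(TMM CPM + 1), a fold change on that scale understating low genes. Tests were two-sided, and Benjamini-Hochberg adjustment ran over every gene tested in a table (threshold 0.05). Effects were compared between materials on limma fits with a Wald test. Levels are CPM of the column total, not per length. Dixon's test, transcript shares and relations used scipy 1.17.1. On simulated data with 200 genes changed by 1 log2 unit, 89.5% were recovered in oocytes (9434 genes), 100% in blastocysts (10817 genes) and 99.5% in dDG (13808 genes). The simulation gave every gene the same dispersion (0.05) and changed none of the lowest-expressed genes. Its shares therefore do not give the recovery for members that vary more between libraries or have low levels.

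Members, lists and alternatives were chosen with earlier results of these data known. All members called in any table, or averaging at least 100 CPM, were named, with up to 4 called genes of each other list. DESeq2 1.42.0, other scalings, filters and pseudocounts, left-out libraries (those for the other lists, domain relations and effect differences added after the data were seen), covariates and a replicate block were alternatives. Windows before starts came from RefSeq on GRCm38.p6, which held 34 of 43 members.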

Additional observations from a re-analysis of the deposited data

Results flagged for a closer look

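Among 112 groups of 6 libraries, 11 had a library that stood apart from the other 5 by Dixon's test; chance alone gives about 1 in 20 groups. In oocytes the highest hCG value of Blcap was 353 CPM in library 3. In dDG, hCG library 6 stood apart as the highest of its group in Igf2 (463 CPM), Mest (29.6 CPM) and Trappc9 (82.2 CPM), and it is the library with 9785 CPM of choroid plexus and ependyma markers. The highest hCG values of Ube3a (44.7 CPM) and Zdbf2 (9.29 CPM) were those of library 5, and that of Commd1 (20.6 CPM) was in library 2. Ctrl library 1 was the highest in Ndn (268 CPM) and Nnat (152 CPM) and the lowest in Peg3 (122 CPM), and Ctrl library 5 was the lowest in Mcts2 (4.07 CPM).

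The effect of hCG on 8 members differed between materials past the threshold of the Wald test on limma fits, as the difference of 2 log2 fold changes. Blastocysts minus oocytes gave 0.87 for Blcap, 0.92 for Igf2r and 0.80 for Mest. The dDG minus blastocysts gave -0.97 for Blcap, 0.55 for Commd1, 1.186 for Kcnq1ot1, -0.84 for Mest, 0.73 for Ppp1r9a and 0.34 for Ube3a. The dDG minus oocytes gave 1.02 for Igf2r and -0.73 for Trappc9. The members passing were 3 of 19, 6 of 25 and 2 of 19 in these pairs, beside 15.1%, 13% and 9.27% of all genes tested. Without the 5 hCG blastocyst libraries with both Xist and Y-linked transcripts, Mest (adjusted p = 0.076 and 0.0653) and Ube3a (0.155) did not pass.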

How the results depend on the processing

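Of 639 values of members under alternatives (43 results whose fold change exceeded its standard error), 597 kept direction and side of the threshold, 19 lost and 14 gained a call, and 9 changed sign; causes were not tested. Oocyte calls over all genes numbered 382, 705 with DESeq2 and 595 without Ctrl libraries 2 and 4 (members lower: 2), and 247 (without Ctrl 3) to 657 (without Ctrl 4) with 1 library left out, with 0 to 1 members higher. The dDG calls numbered 1091, 583 with the replicate block and 649 (without Ctrl 6) to 1231 (without Ctrl 5) with 1 library left out, 681 without Ctrl 2 and 682 without Ctrl 3. In dDG, DESeq2 called 1 member higher and 2 lower, library size without TMM 1 lower, and leaving out 1 library 0 to 1 in each direction. Blastocyst calls numbered 1766 of 10848 genes, and 1147 without the 5 hCG libraries with both Xist and Y-linked transcripts, or 775 of 10848 with genes detected as a covariate (members: 1 higher and 3 lower in each). With deposited blastocyst values as they stand, the median of all genes moved to 0.49, calls to 3670, and members to 7 higher and 0 lower; Ube3a (0.045), Sfmbt2 (0.026), Grb10 (0.003), Gnas (0.254) and Plagl1 (0.31) changed sign. Trappc9 and Igf2 in blastocysts changed sign with edgeR on estimated reads (-0.011 and -0.036) and with the covariate (-0.295 and -0.123). Sfmbt2 missed the threshold with no filter (0.0586) and with no TMM (0.0646), and Ppp1r9a with 8 of the blastocyst alternatives, the replicate block among them (0.0828, limma). Same-numbered libraries correlated at -0.17 to 0.19 in oocytes, -0.19 to 0.15 in blastocysts and -0.15 to 0.18 in dDG, which gives no sign that the numbers pair them. Pairing by dam could not be tested, since no dam is given. Members under the filter rest on few reads, and their levels carry counting error.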
